A study of Homo sapiens with 3 samples.

Results

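The genes described here encode 9 enzymes of serine synthesis and of the folate one-carbon cycle, chosen by name from the 60664 Ensembl genes of a count table of Caco-2 RNA. They were chosen with earlier results of these data known. All 9 passed the low-count filter, a CPM (counts per 1000000 of the scaled library total) of at least 1 in at least 1 library, as did 14792 genes in all. Caco-2 is an established human colon carcinoma line that is used as a model of the intestinal lining, and the labels give its genotype as WT. The 3 libraries, 1 per group, came from untreated cells (control), from cells in 3% DSS (dextran sulfate sodium) for 8 h, and from cells that first had 30 µM polydatin for 2 h and then both agents together. DSS is a sulfated sugar polymer used to provoke colitis in rodents. Polydatin is resveratrol joined to glucose. No library with polydatin alone was analysed here, so a value of the third group is that of both agents. The control cells carry neither agent.

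With 1 library per group there is no replicate error and no test of the conditions: every ratio compares 2 libraries. Ratios are of scaled counts, and the range in parentheses after each is its 95% exact counting interval, which covers counting error only. A gene counts as called when the ratio is past 1.5-fold in either direction and its interval excludes 1. Library totals were 16667622 to 18825914 counts. The intestinal epithelial markers EPCAM, VIL1, CDH17, HNF4A, KRT8 and KRT18 were abundant in all 3 libraries, with a summed CPM of 6744 to 8549 over the list of 11, while CDX1 had no count, KRT20 had 8 to 10 and LGALS4 had 4 to 25. Of this list CDX2 was called lower with both agents against DSS alone, at 0.665 times (0.621 to 0.712). LGALS4 was called higher, but it passed the filter only through the library with both agents. The summed CPM of 14 markers of other cell types was 62.3 to 69.3, most of it COL1A1, and PTPRC and ELAVL4 had no count in any library. Of that list, with counts always given in the order control, DSS alone and both agents, LYZ (14, 83 and 39 counts), VWF (9, 22 and 68 counts) and PECAM1 (443, 297 and 166 counts) were called in both main comparisons. Their part in the levels of the 9 was not tested.

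Serine is made from a glycolytic intermediate in 3 steps. PHGDH oxidises 3-phosphoglycerate, PSAT1 adds the amino group, and PSPH removes the phosphate. SHMT1 in the cytosol and SHMT2 in mitochondria then split serine into glycine and a one-carbon unit carried on folate. In mitochondria MTHFD2 oxidises that unit, and MTHFD1L releases it as formate or ALDH1L2 burns it to CO2 with formation of NADPH. In the cytosol MTHFD1 takes up formate and carries the units to purine and thymidylate synthesis. The pathway is known for its activity in dividing cells and for being under the transcription factor ATF4, which acts in the integrated stress response.

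In GENCODE release 29 on GRCh38 all 9 are protein-coding genes. PHGDH lies on chromosome 1 (119648411 to 119744226), PSAT1 on chromosome 9 (78297143 to 78330093) and PSPH on chromosome 7 (56011051 to 56051604). The mitochondrial enzymes are encoded by SHMT2 on chromosome 12 (57229327 to 57234935), MTHFD2 on chromosome 2 (74198562 to 74217565), MTHFD1L on chromosome 6 (150865549 to 151101887) and ALDH1L2 on chromosome 12 (105019784 to 105084577). The cytosolic ones are encoded by SHMT1 on chromosome 17 (18327860 to 18363563) and MTHFD1 on chromosome 14 (64388031 to 64463457).

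RefSeq promoter windows, 250 bases before to 50 after a start site (GRCh38.p14), were matched for 6 of the 9 genes, PHGDH, PSAT1, SHMT1, MTHFD2, MTHFD1L and MTHFD1, with 4 windows for MTHFD1L. They were searched on both strands for TGATGNAA (the C/EBP-ATF element that ATF4 binds), CACGTG (the E-box that MYC binds) and TGACNNNGC (the antioxidant response element that NRF2 binds). The C/EBP-ATF element was found in 1 of the 6 genes, MTHFD1L, against 3.63% of 34796 promoter windows of the same length. The E-box was found in 2, MTHFD1L and MTHFD1, against 7.21% of windows. The antioxidant response element was found in 1, MTHFD2, against 13.3% of windows. CCAAT, the box that NF-Y binds, was added to the search after the windows had been read. It was found in all 6 genes, against 34.6% of windows, and PSAT1 held 3 copies. All these gene counts take a match in any window of the gene, while the shares are per window. Of the 4 MTHFD1L windows, 1 held no CCAAT. As CCAAT was picked after that reading, its count cannot be weighed against its share. The matches are a description of these letters, not of binding.

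The windows of PSAT1 and MTHFD2 are shown upstream of any annotated exon, as those of the gene with 3 CCAAT copies and of the most abundant of the 9, with CCAAT in capitals. The PSAT1 stretch is chr9:78296875-78297124 and the MTHFD2 stretch is chr2:74198365-74198561, both on the plus strand.
PSAT1: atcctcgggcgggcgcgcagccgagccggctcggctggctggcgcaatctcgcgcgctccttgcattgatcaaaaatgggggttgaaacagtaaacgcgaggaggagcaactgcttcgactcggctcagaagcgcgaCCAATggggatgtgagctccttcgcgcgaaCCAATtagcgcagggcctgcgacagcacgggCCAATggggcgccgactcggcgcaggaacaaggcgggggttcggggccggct
MTHFD2: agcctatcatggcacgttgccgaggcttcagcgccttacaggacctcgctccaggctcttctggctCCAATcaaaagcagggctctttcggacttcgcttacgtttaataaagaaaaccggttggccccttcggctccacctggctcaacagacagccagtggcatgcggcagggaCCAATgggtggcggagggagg

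Of the other matches, 5 are shown in stretches of 30 bases on the plus strand, with the match in capitals: the matches to the first 3 motifs and, for the gene of the first step of serine synthesis, its CCAAT. These are the CCAAT of PHGDH (chr1:119711851-119711880), the E-box (chr6:150866320-150866349) and the C/EBP-ATF element (chr6:150866346-150866375) of MTHFD1L, which start 25 bases apart, the E-box of MTHFD1 (chr14:64388326-64388355) and the antioxidant response element of MTHFD2, read on the minus strand (chr2:74198611-74198640). Unlike the PSAT1 and MTHFD2 stretches above, these 5 were not limited to bases outside annotated exons. The longest exon-free run upstream in the PHGDH window was 31 bases (chr1:119711684-119711714) and does not hold its CCAAT. The MTHFD1 window had no such run, and the MTHFD2 antioxidant response match lies after the start site.
PHGDH CCAAT: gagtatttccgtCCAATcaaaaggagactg
MTHFD1L E-box: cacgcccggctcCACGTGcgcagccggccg
MTHFD1L C/EBP-ATF: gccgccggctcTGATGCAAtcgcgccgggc
MTHFD1 E-box: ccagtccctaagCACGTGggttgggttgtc
MTHFD2 antioxidant response: ttccctcccgGCGCAGTCAccggcgcggtc

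All 9 genes had their highest scaled level in the control library. The comparison of DSS with control addresses the effect of DSS itself, and in it 7 of the 9 were lower at 1.5-fold and none was higher. Over all measured genes 5.81% were called lower and 9.45% higher. As the 9 were chosen with earlier results of these data known, counts beside such shares are a description, here and in the other comparisons. The median log2 ratio of the 9 was −0.99, beside −0.01 over all measured genes. At 2-fold 4 of the 9 were lower and none higher, beside 1.76% and 4.24% of all measured genes, with SHMT2 and MTHFD1L just outside. The lowest 4, ALDH1L2, PSAT1, PHGDH and MTHFD2, ranked 44, 55, 100 and 109 from the bottom of the 14792 genes. The 2 that were not called, SHMT1 and MTHFD1, are the cytosolic folate enzymes. Transcripts per cell and cell number cannot be told apart in bulk RNA, so these are levels relative to the rest of each library.

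**Figure D1:**
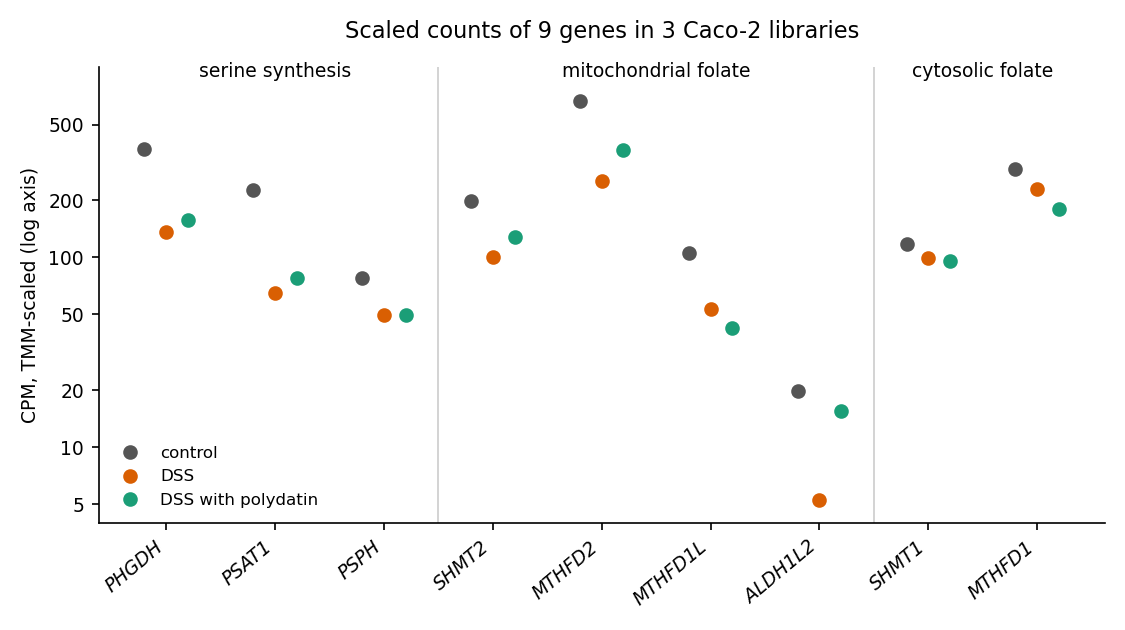
Scaled counts (CPM, log axis) of the 9 genes, 1 point per library, grouped by role. The control point is the top one for every gene. The point for both agents lies above that for DSS alone for PHGDH, PSAT1, SHMT2, MTHFD2 and ALDH1L2 and below it for MTHFD1L and MTHFD1.

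Among the serine synthesis genes the first 2 steps stood far lower with DSS than the last. PHGDH had 6790 counts in control, 2522 with DSS alone and 2754 with both agents, or 374, 136 and 158 CPM. The DSS level was 0.364 times control (0.348 to 0.381). Both DSS libraries were low, and the one with polydatin was 1.16 times DSS alone (1.10 to 1.23), short of a call. PSAT1 had 4085, 1196 and 1359 counts, or 225, 64.6 and 77.9 CPM. It was at 0.287 times control with DSS (0.269 to 0.306) and at 1.21 times the DSS level with polydatin added (1.12 to 1.31). As for PHGDH, the step up was small beside the step down. PSPH had 1414, 925 and 871 counts, or 77.9, 49.9 and 49.95 CPM. It was at 0.641 times control with DSS (0.590 to 0.697), and the ratio of both agents to DSS alone was 1.00 (0.911 to 1.10). For this last step of serine synthesis control was high and the other libraries were level with each other. Summed over the 3 genes, the level was 677 CPM in control, 251 with DSS alone and 286 with both agents.

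The mitochondrial folate genes were all called lower with DSS and then differed from one another with polydatin. SHMT2 had 3591 counts in control, 1850 with DSS alone and 2236 with both agents, or 198, 99.9 and 128 CPM. It was at 0.505 times control with DSS (0.477 to 0.534) and at 1.28 times the DSS level with polydatin added (1.21 to 1.37). MTHFD2, the most abundant of the 9 per length, had 12065, 4688 and 6421 counts, or 664, 253 and 368 CPM. It was at 0.381 times control with DSS (0.368 to 0.394). With polydatin it was 1.46 times DSS (1.40 to 1.51), just short of a call under the main scaling, and with library totals as the scale its log2 ratio was 0.63 and it was called higher. SLC4A5 on the other strand shares 27.2% of the exon bases of MTHFD2 but had 10 to 13 counts.

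ALDH1L2, the NADPH-forming mitochondrial enzyme and the least abundant of the 9, had 361 counts in control, 98 with DSS alone and 272 with both agents, or 19.9, 5.29 and 15.6 CPM. Control and the library with both agents lay near each other and DSS alone stood apart below them. It was at 0.266 times control with DSS (0.211 to 0.333), the lowest ratio of the 9. It was 2.95 times the DSS level with polydatin added (2.33 to 3.75), the 57th highest of all measured genes. Both ratios rest on the 98 counts of the DSS library. The ratio that leaves that library out, both agents to control, was 0.785 (0.668 to 0.921). Its exons share 145 bases with NOPCHAP1 on the other strand, which had 437, 366 and 278 counts.

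MTHFD1L, which forms formate in mitochondria, had 1903, 990 and 736 counts, or 105, 53.4 and 42.2 CPM. It was at 0.510 times control with DSS (0.472 to 0.551) and, unlike the other mitochondrial genes, below DSS alone with polydatin, at 0.790 times (0.717 to 0.870). Its level with both agents was 0.403 times control (0.369 to 0.439), the second lowest of the 9 after PSAT1. Summed over the 4 mitochondrial genes, the level was 987 CPM in control, 412 with DSS alone and 554 with both agents, of which MTHFD2 made up most.

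The cytosolic folate genes had the DSS ratios nearest to 1 among the 9. SHMT1 had 2138 counts in control, 1829 with DSS alone and 1671 with both agents, or 118, 98.7 and 95.8 CPM. It was at 0.838 times control with DSS (0.787 to 0.893), and the ratio of both agents to DSS alone was 0.971 (0.908 to 1.04). MTHFD1, the enzyme with 3 activities that feeds purine synthesis, had 5270, 4234 and 3147 counts, or 290, 229 and 180 CPM. Its levels were ordered control, DSS, both agents, at 0.787 times control with DSS (0.756 to 0.820) and 0.790 times the DSS level with polydatin added (0.754 to 0.827). SHMT1 shares 196 bases of its exons with SMCR8 on the other strand, which had 2189, 3051 and 3122 counts, and MTHFD1 shares 178 with ZBTB25, which had 468, 507 and 575. With the strand setting not given, the reads of such stretches cannot be told apart. Of 14 annotated pseudogene copies of these genes, 2 had a count, the higher of them MTHFD2P7 with 3 to 11 counts, so the copies held almost none of the counted reads. How reads that match both a gene and a copy were counted is not given.

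The comparison of both agents with DSS alone addresses the effect of adding polydatin, and in it 1 of the 9, ALDH1L2, was called higher and none lower. Over all measured genes 5.39% were called higher and 2.60% lower. At 2-fold ALDH1L2 was still the 1 gene called, beside 1.94% of all measured genes higher and 0.460% lower. The median log2 ratio of the 9 was 0.21, beside −0.01 over all measured genes, with 6 above 0 and 3 below. In the order of their log2 ratios, ALDH1L2 at 1.56 was followed by MTHFD2 at 0.54, SHMT2 at 0.36, PSAT1 at 0.27 and PHGDH at 0.21. The intervals of PSPH and SHMT1 included no difference, and MTHFD1L and MTHFD1 were both at −0.34. This comparison shares the DSS library with the first, so an error in that library moves both ratios in opposite directions. With library totals in place of the main scaling 2 of the 9 were called higher, and the higher share of all calls in this comparison moved from 67.5% to 82.7%.

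**Figure D2:**
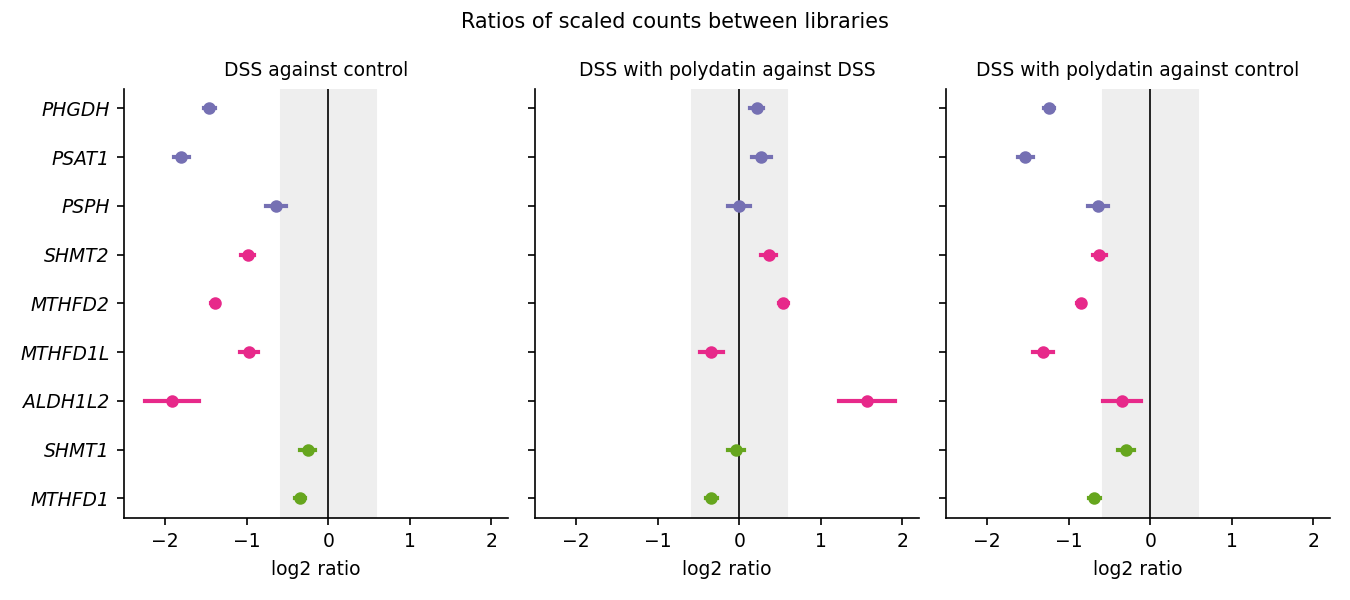
Log2 ratios of scaled counts (points) with 95% exact counting intervals (bars) in the 3 comparisons, coloured by role (violet for serine synthesis, pink for mitochondrial folate, green for cytosolic folate). The grey band spans 1.5-fold either way: 7 genes lie below it for DSS against control, and ALDH1L2 alone lies above it for both agents against DSS alone.

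The comparison of both agents with control shares a library with each of the others. In it 7 of the 9 were called lower, beside 12.4% of all measured genes called lower and 16.0% higher. At 2-fold 3 of the 9 were lower, PSAT1, MTHFD1L and PHGDH, beside 3.27% of all measured genes lower and 8.53% higher. The 7 were not those of the first comparison. ALDH1L2 was no longer among them and MTHFD1 was, at 0.622 times control (0.595 to 0.650). PSAT1 was at 0.346 times control (0.326 to 0.368), PHGDH at 0.422 times (0.404 to 0.442) and MTHFD2 at 0.554 times (0.538 to 0.571). PSPH at 0.641 times (0.589 to 0.698), SHMT2 at 0.648 times (0.615 to 0.684) and MTHFD1 lay close to the threshold. With library totals as the scale 4 of the 9 were called lower, the median of all measured genes moved from −0.02 to 0.09 on the log2 scale, and the higher share of all calls moved from 56.4% to 70.3%.

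**Figure D3:**
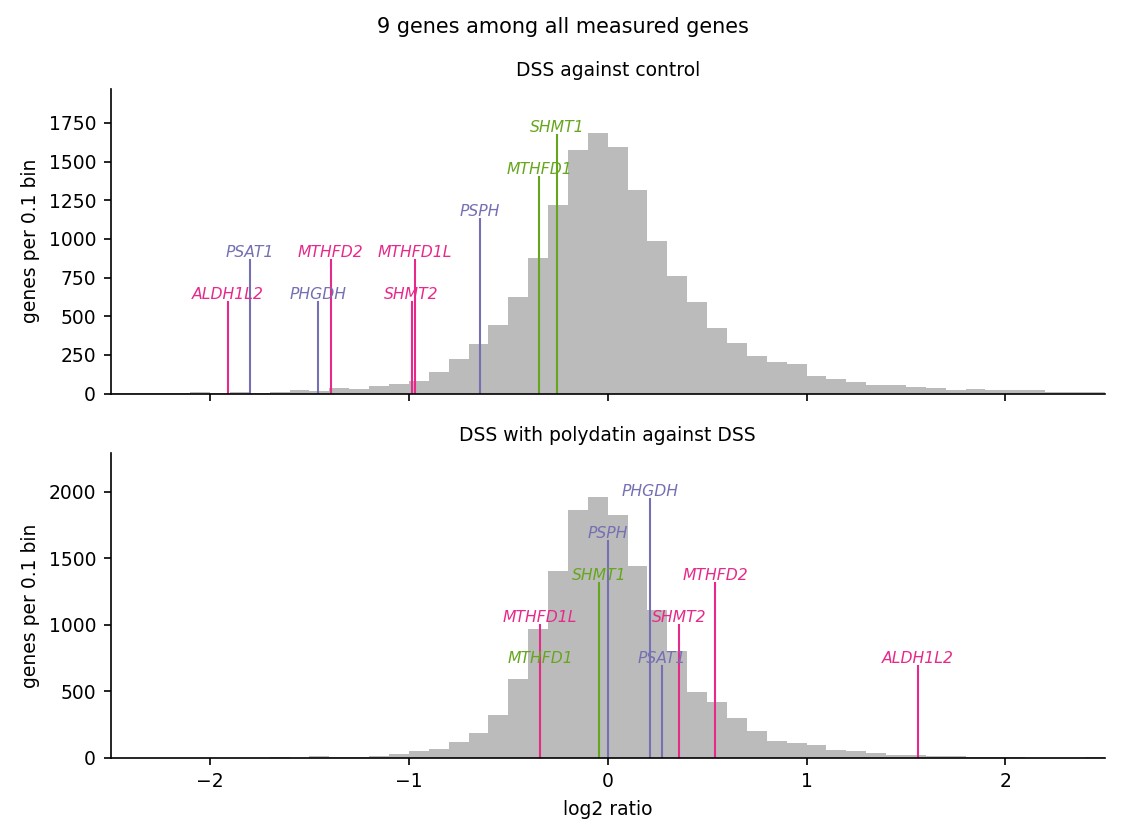
Number of measured genes per 0.1 bin of log2 ratio (grey bars), with the 9 genes marked by coloured lines whose heights only separate the labels. With DSS, 7 of the lines stand in the lower tail beyond 1.5-fold; with polydatin added, all but ALDH1L2 stand within 1.5-fold of DSS.

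Per length, with the union of annotated exons as length, MTHFD2 led in control at 480 TPM (counts per length, scaled to a sum of 1000000 over all genes), followed by PSAT1 at 362. SHMT2 at 144 and PHGDH at 143 differed by less than counting error, with a ratio of 1.01 (0.967 to 1.05). MTHFD1 at 109, PSPH at 99.2, MTHFD1L at 73.5 and SHMT1 at 56.9 came next, and ALDH1L2 was last at 8.23. In DSS the order was MTHFD2 at 189 TPM, PSAT1 at 107, MTHFD1 at 88.8, SHMT2 at 75.2, PSPH at 65.9, PHGDH at 53.8, SHMT1 at 49.4, MTHFD1L at 38.8 and ALDH1L2 at 2.27. With polydatin MTHFD2 was at 301 TPM, PSAT1 at 142 and SHMT2 at 106. MTHFD1 at 76.7, PSPH at 72.1 and PHGDH at 68.3 were next, and the neighbours among these 3 differed by less than counting error. SHMT1 at 52.5, MTHFD1L at 33.5 and ALDH1L2 at 7.31 came last. MTHFD2 held the first place and ALDH1L2 the last in all 3 libraries, by either length. The places between them depend on the length used. With the longest transcript as length PHGDH, whose annotated exons cover 9217 bases and whose longest transcript has 3180, was second in all 3 libraries, at 314, 118 and 149.8 TPM. PSAT1 then ranked 3, 5 and 4 in control, DSS and both agents, and SHMT1 ranked 5, 3 and 5.

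The balance between the mitochondrial and the cytosolic folate enzymes was lower in DSS than in the other libraries. The summed level per length of SHMT2, MTHFD2, MTHFD1L and ALDH1L2 was 4.26 times that of SHMT1 and MTHFD1 in control (4.14 to 4.37, here from a normal approximation to counting error). It was 2.21 times with DSS alone (2.14 to 2.29) and 3.47 times with both agents (3.35 to 3.59). In control, DSS and both agents the mitochondrial sum was 706, 306 and 448 TPM, of which MTHFD2 made up 480, 189 and 301. The cytosolic sum was 166, 138 and 129 TPM, so with both agents the ratio also reflects a lower denominator. With the longest transcript as length the values were 2.80, 1.46 and 2.19, lower but in the same order. The 2 serine hydroxymethyltransferase genes, SHMT2 over SHMT1, stood at 2.53 in control (2.40 to 2.67), 1.52 with DSS alone (1.43 to 1.62) and 2.01 with both agents (1.89 to 2.15). With the longest transcript as length they were 1.36, 0.816 (0.765 to 0.871) and 1.08, so that with DSS alone SHMT2 was below SHMT1 by this length and above it by the other. Which of the pair is higher with DSS alone therefore depends on the length, while the order of the libraries does not. MTHFD2 over MTHFD1 followed the same order, at 4.41 in control (4.27 to 4.55), 2.13 with DSS alone (2.04 to 2.22) and 3.93 with both agents (3.76 to 4.10). MTHFD1L over MTHFD1 did not, at 0.674 in control (0.640 to 0.711) and 0.437 in both other libraries (0.407 to 0.468 in DSS). MTHFD2 over MTHFD1L, the 2 steps that follow SHMT2 in mitochondria, was 6.54 in control (6.23 to 6.86), 4.88 with DSS alone (4.56 to 5.23) and 8.99 with both agents (8.33 to 9.72).

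**Figure D4:**
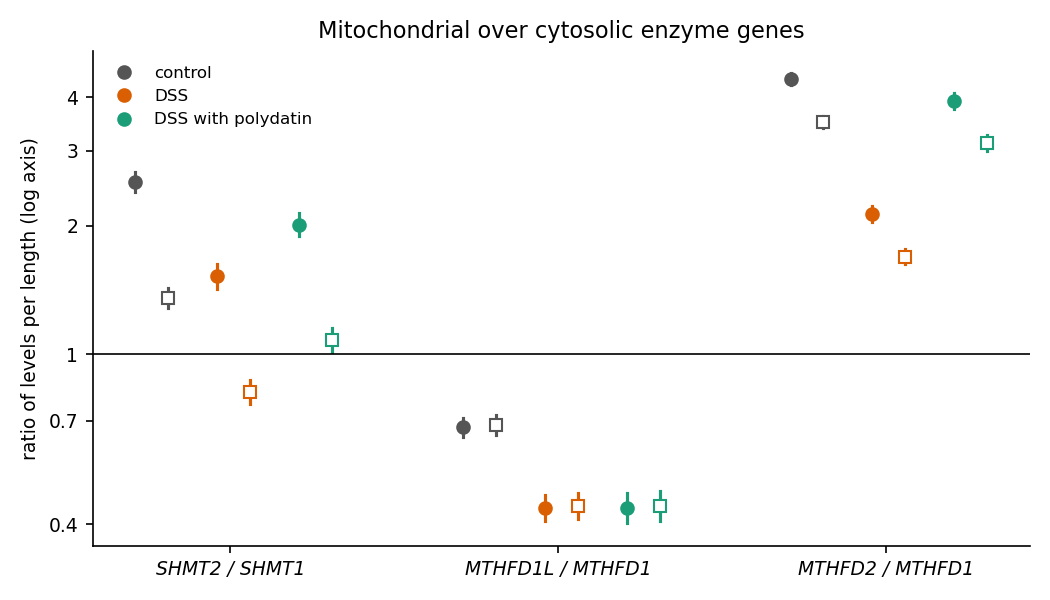
Ratios of levels per length (log axis) of mitochondrial to cytosolic enzyme genes in each library, with 95% exact counting intervals. Filled circles use the union of exons and open squares the longest transcript as length. SHMT2 over SHMT1 and MTHFD2 over MTHFD1 are lowest in DSS by either length, while MTHFD1L over MTHFD1 is equal in both DSS libraries.

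Of 10 other enzymes of the folate cycle 9 were measured, and with DSS 2 of them were lower and none higher, with a median log2 ratio of −0.34. For this list and those below, the shares over all measured genes were 5.81% lower and 9.45% higher with DSS. With polydatin against DSS they were 5.39% higher and 2.60% lower. Beside these shares the counts of such short lists are a description only. TYMS, which makes thymidylate from a folate-borne carbon, had 4015, 2714 and 2588 counts and was at 0.663 times control (0.631 to 0.696). FTCD, which passes a one-carbon unit from histidine breakdown to folate, had 116, 56 and 50 counts and was at 0.473 times control (0.338 to 0.656). MTHFD2L, the MTHFD2 paralogue, was at 0.788 times (0.659 to 0.942), not past 1.5-fold. ALDH1L1, the cytosolic counterpart of ALDH1L2, had 0, 0 and 1 count, where 3 counts correspond to 0.162 to 0.172 CPM. With polydatin 1 of the 9 measured was higher than in DSS, MTHFS with 12 counts in DSS and 24 with polydatin, at 2.12 times (1.02 to 4.66), and none was lower. MTHFS passed the filter only through the library with both agents, in which it was high.

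Folate entry and serine transport held both directions. SLC46A1, the proton-coupled folate importer of the gut, had 5162 counts in control, 11126 with DSS alone and 11585 with both agents, and was 2.11-fold higher with DSS (2.04 to 2.18), the only call among 6 genes of folate uptake and retention. None of the 6 was called with polydatin against DSS. Among 9 measured genes of serine and glycine transport, 2 were higher and 1 lower with DSS, and 2 were higher and none lower with polydatin. SLC1A4, a neutral amino acid exchanger that carries serine, had 704, 267 and 544 counts. It was at 0.372 times control with DSS (0.322 to 0.429) and 2.16 times the DSS level with polydatin added (1.87 to 2.52), a low, then intermediate level like that of ALDH1L2. SLC38A2 was 1.84-fold higher with DSS (1.80 to 1.88), with 11042, 20747 and 22385 counts, and SFXN3 1.55-fold higher (1.35 to 1.79). The glycine transporter gene SLC6A9 had 282, 263 and 473 counts and was 1.91-fold higher with polydatin than in DSS (1.64 to 2.23). SFXN1, the mitochondrial serine carrier, was at 0.869 times control with DSS (0.828 to 0.913).

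Genes that draw on serine, glycine or one-carbon units were mostly within 1.5-fold with DSS. None of 6 measured genes of glycine cleavage and serine breakdown was called in either main comparison, though all 6 lay below 0 with DSS, with a median log2 ratio of −0.46. Of all 14792 measured genes 7473 lay below 0 with DSS. GLDC, the decarboxylase of the glycine cleavage system, was at 0.937 times control with DSS (0.894 to 0.983) and 0.735 times the DSS level with polydatin added (0.697 to 0.774). Of 10 measured genes of the methionine cycle and transsulfuration 1 was lower with DSS, CBS, which joins serine to homocysteine, at 0.464 times control (0.346 to 0.618) with 152 and 72 counts. None of these 10 was called with polydatin against DSS. Among 11 genes of serine-using lipid synthesis and serine incorporation, SERINC2 was 1.99-fold higher with DSS (1.70 to 2.33), while SPTSSB at 0.520 times (0.460 to 0.588) and SPTLC3 at 0.584 times (0.555 to 0.614), both of the enzyme that begins sphingolipid synthesis, were lower. SPTSSB was 1.55 times the DSS level with polydatin added (1.36 to 1.76).

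Purine synthesis, which takes up formyl groups carried by folate, was mostly below control in its genes. With DSS none of 13 was called, but 12 lay below 0, with a median log2 ratio of −0.37. Of all 14792 measured genes 7473 lay below 0 with DSS and 7630 with polydatin against DSS. With polydatin against DSS 11 lay below 0, with a median of −0.42, and 1 was called, ADSS1, which was higher with 13 and 28 counts (ratio 2.29, 1.15 to 4.81). Against control, cells with both agents had 9 of the 13 lower, beside 12.4% of all measured genes. PAICS had 9666, 7650 and 5034 counts and ended at 0.542 times control (0.524 to 0.561). GART had 3910, 3041 and 2069 counts and ended at 0.551 times (0.522 to 0.581), and ATIC had 4899, 4189 and 2739 counts and ended at 0.582 times (0.555 to 0.610). GART and ATIC use the folate-borne formyl group, and like MTHFD1 they were highest in control and lowest with both agents. That order was not particular to them. PRPS1, PPAT and GMPS, which do not use that group, had it too, with PRPS1 at 0.517 times control with both agents (0.469 to 0.570). Of the 13 genes, 2 lay above 0 with both agents against control. S phase genes were also on the lower side with DSS. All 13 of that list lay below 0, with a median of −0.48, and 3 were called lower, RRM1 at 0.629 times control (0.604 to 0.656), CCNE2 at 0.636 times (0.567 to 0.713) and MCM6 at 0.657 times (0.634 to 0.680). With polydatin against DSS 1 was lower, MCM6 at 0.646 times (0.617 to 0.675), with 5 of the 13 above 0. With both agents against control 7 of these 13 S phase genes were called lower, with a median of −0.60, so a fall there was not particular to purine synthesis. Their part in the levels of the 9 was not tested.

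**Figure D5:**
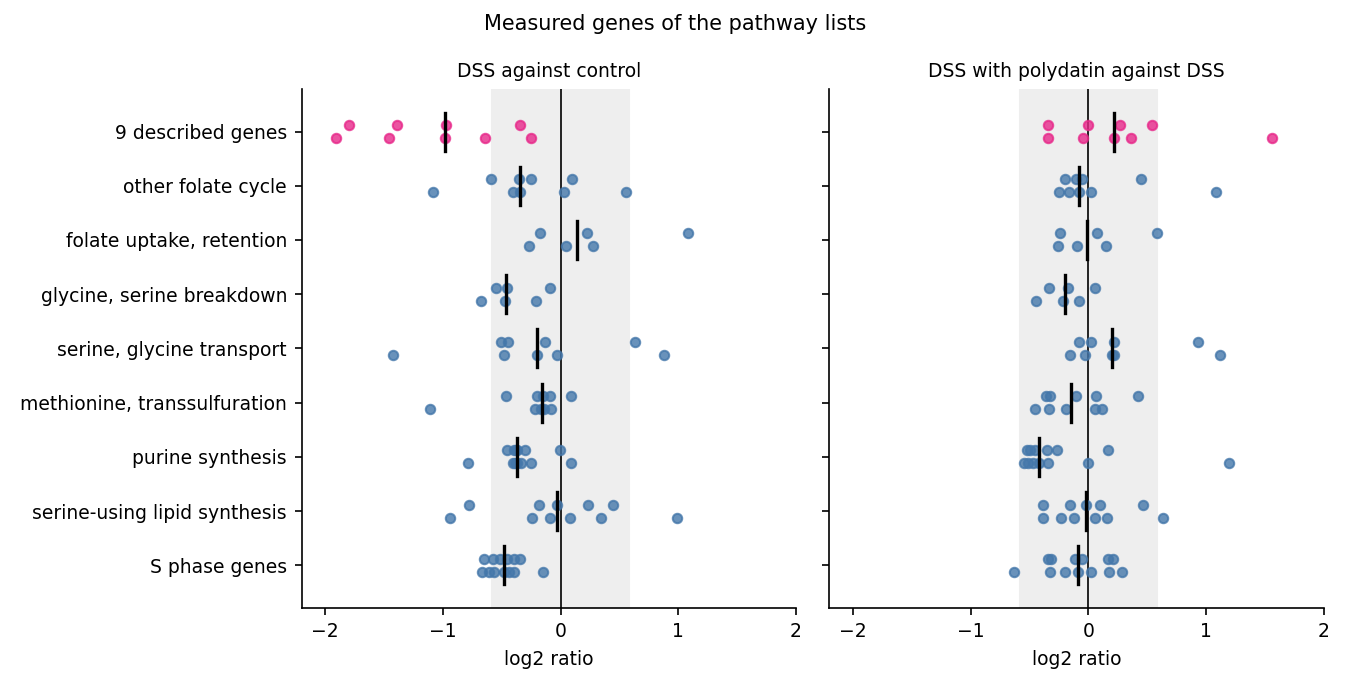
Log2 ratios of the measured genes of each list (points), with the list median (black line) and 1.5-fold either way (grey band). The 9 described genes have the lowest median with DSS, −0.99, and purine synthesis the lowest with polydatin against DSS, −0.42. As the genes and lists were chosen with earlier results of these data known, this order is a description only.

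None of 3 transcription factors tied to these genes, ATF4, MYC and NRF2, was called at the mRNA level with DSS. ATF4 had 9657 counts in control, 8176 with DSS alone and 9478 with both agents. It was at 0.830 times control with DSS (0.806 to 0.855) and at 1.23 times the DSS level with polydatin added (1.20 to 1.27), and both agents stood to control at 1.02 (0.993 to 1.05). ATF4 is controlled largely in translation, which these counts do not measure. ASNS, the asparagine synthetase gene and a textbook ATF4 target, had 61, 20 and 41 counts, with ratios of 0.321 (0.184 to 0.540) and 2.18 (1.25 to 3.92). At 3.36, 1.08 and 2.35 CPM it lay near the filter, so its ratios rest on few counts. TRIB3, another ATF4 target, did not share the low level in DSS: it had 1724, 2021 and 3029 counts, at 1.15 times control (1.08 to 1.23) and then 1.59 times DSS (1.5 to 1.69). DDIT3, listed with them, had 298, 247 and 336 counts and was called in neither comparison, at 0.812 times (0.683 to 0.965) and 1.45 times (1.22 to 1.71). MYC had 2951, 4013 and 2098 counts. It was at 1.33 times control with DSS (1.27 to 1.40), short of a call. With polydatin it was called lower, at 0.555 times DSS (0.527 to 0.586). NFE2L2, which encodes NRF2, had 2748, 3673 and 3732 counts, at 1.31 times control with DSS (1.25 to 1.38) and 1.08 times the DSS level with polydatin added (1.03 to 1.13).

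ALDH1L2 was the 1 gene of the 9 called in both main comparisons, so the genes of most like pattern were sought for it by distance over the 2 log2 ratios, among 9716 other genes with a mean CPM of at least 10. The nearest was VLDLR, a lipoprotein receptor gene, at a distance of 0.58, with ratios of 0.382 for DSS to control and 2.48 for both agents to DSS alone. SLC1A4 came next at 0.66, and then SLC7A11, the cystine importer gene, at 0.89, with ratios of 0.368 and 1.74. The 2 ratios share the DSS library, and the distances, from 3 libraries in all, are a description only.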

How the data were processed

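RNA was measured in 3 Caco-2 libraries. Per the labels' protocols it was total RNA extracted with Trizol, made into libraries with a VAHTS Universal V6 kit. The aligner was HISAT2 and the genome build GRCh38, per the submitters' processing notes. The deposited values are raw counts of reads per Ensembl gene. With which program, annotation and strand setting they were counted is not given in the sources used here. Symbols were matched for 60463 of 60664 identifiers; coordinates, lengths and GC content came from GENCODE 29, which holds 58396 of them.

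Counts were scaled by TMM (edgeR 4.0.16, R 4.3.3; factors 0.971, 0.984 and 1.05 for control, DSS and both agents). A CPM of 1 is 17.4 to 18.5 counts. Ratios carry 95% Clopper-Pearson intervals (scipy 1.17.1, Python 3.11.15); the reads carry no molecular identifiers, so they are not independent molecules. With a count of 0, 0.5 was added to both libraries. The ratio and call rule were tested on counts simulated with counting error alone. That check could not cover variation between cultures. With 1 library per group no p-value is given.

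The genes and lists were chosen with earlier results of these data known. Named were the 9 genes, ATF4, MYC and NFE2L2, up to 4 genes called per list and comparison, and the 3 genes nearest in pattern; other genes named were chosen after their values were seen. Protein sequences were not used here, and some listed genes are not reported by name. Alternatives were library totals, size factors from DESeq2 1.42.0, filtering off or at a CPM of 10, thinned libraries, 2 counts added, removal of a GC content and length trend (statsmodels 0.14.6), pseudogene counts added, a 2-fold rule and the longest transcript as length. Figures used matplotlib 3.10.9.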

Additional observations from a re-analysis of the deposited data

How the results depend on the processing

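The 27 log2 ratios of the 9 genes (9 genes in 3 comparisons) were recomputed under 8 alternatives, 216 values in all. Of the 8, filtering off and a CPM of at least 10 change only which genes are kept, so their values could not move. No called ratio changed sign. In 3 values an uncalled ratio near 0 changed sign, that of SHMT1 once and that of PSPH 2 times, both for DSS with polydatin against DSS. A total of 18 values moved beyond the main counting interval, 9 with library totals and 9 after removing the trend with GC content and length, the largest shift being 0.26 on the log2 scale. With library totals 2 of the 9 genes were higher in DSS with polydatin than in DSS (1 under the main scaling) and 4 were lower than in control (7 under the main scaling). The 2-fold rule left 4 of 7 genes lower in DSS against control and 3 of 7 lower in DSS with polydatin against control. With a CPM of at least 10, the pathway lists held 3 genes higher in DSS with polydatin than in DSS, against 5. With the longest transcript as length, the mitochondrial over cytosolic folate level was 2.80 in control, 1.46 with DSS alone and 2.19 with both agents, lower than with the union of exons in each library but in the same order. The cause of these shifts was not tested. The other counts of calls stayed within 1.5 times the main ones. Depth limits ALDH1L2 most, whose 98 counts in DSS give the widest intervals of the 9. No paired analysis was possible because each group has 1 library.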

Other observations

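BCAT1, which encodes the cytosolic branched-chain amino acid transaminase, was the gene nearest in pattern to both PHGDH (distance 0.09 over the 2 log2 ratios) and PSAT1 (distance 0.27), among 9716 genes with a mean CPM of at least 10. It was at 0.343 times control with DSS and at 1.14 times the DSS level with polydatin added. For MTHFD2 the nearest genes were DDIT4, an inhibitor of mTORC1 signalling, at 0.393 and 1.53 times, and STRIP2, at 0.416 and 1.45 times. For SHMT2 they were OXCT1, a ketone body enzyme gene, at 0.530 and 1.30 times, and ERRFI1, a feedback inhibitor of the EGF receptor, at 0.479 and 1.25 times. For MTHFD1 the nearest were TFCP2, at 0.787 and 0.793 times, and MRPL21, at 0.792 and 0.785 times. The third nearest to it was PRKDC, a DNA repair kinase gene, at 0.784 and 0.797 times. These genes were named after their values were seen, from 3 libraries, and the distances carry no test.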
